A study of Homo sapiens with 13 samples.

Results

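The arrays described here are the mixed arrays of IRF and NFKB motifs, that is, all constructs whose motif string holds both motifs and no other. They were chosen by name alone, in every order, copy number and flanking context given. They numbered 12 of the 542 constructs of the episomal 5 bp library, 9 of the 442 of the episomal 10 bp library and 12 of the 513 of the integrated 5 bp library. Each array is written by its motifs in the order of the construct name, so that IRF_NFKB has the IRF name first, and each string came in 3 flanking contexts, called contexts 1 to 3. The strings were IRF_NFKB, NFKB_IRF, IRF_NFKB_IRF and NFKB_IRF_NFKB, and the 10 bp arrays of IRF_NFKB_IRF were not analysed here. In this STARR-seq series each array carries barcodes that are read from the reporter mRNA and from the DNA, and the ratio of both reads out its activity. All samples came from the established cell line MEC1, which derives from chronic lymphocytic leukaemia, a cancer of B lymphocytes. The episomal assay had 2 mRNA libraries per spacer from duplicate electroporations, taken 24 h after transfection, against 1 plasmid DNA library per spacer. The integrated assay had 3 mRNA samples against 3 genomic DNA samples, extracted together in triplicate from MEC1 cells with CRE recombinase and a loxP-CMV-GFP-lox2272 landing pad. Those cells had been kept in Blasticidin for 5 days before the 5 bp library was transfected, were sorted for loss of GFP after growth in standard medium, and were grown on before extraction.

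NFKB factors are dimers held inactive in the cytoplasm until receptor signals release them, and they then bind kappaB sites of immune and inflammatory genes. IRF factors bind interferon response elements, and in B lymphocytes IRF4 and IRF8 take part in differentiation. Both families are known to bind side by side on the enhancer of the interferon beta gene, where the arrangement of the sites matters. The construct names say which motif is at which place, and the letters of the motifs and spacers were not used here. The sequences read in these tables are the 12 bp barcodes that mark each clone of an array. A pair of them is shown because single clones carried most of the mRNA of 2 integrated arrays:
IRF_NFKB context 3: gtacttttgtct
NFKB_IRF_NFKB context 2: attgtcttcgac

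The mixed arrays were held by 8545 barcodes at 5 bp, 7891 barcodes at 10 bp and 443 barcodes in the integrated library. The largest share of an array's mRNA on 1 barcode was 2.31% at 5 bp and 2.37% at 10 bp, but 75.39% and 52% for the pair of integrated arrays above. Activity is the log2 ratio of an array's share of the mRNA reads to its share of the plasmid reads, and in the integrated assay of its summed mRNA to its summed genomic DNA in normalized reads (RPM, scaled to library size by the authors), with 0.5 RPM added to each. The constructs named rd, 1 per context, hold none of the 8 motif names and served as the background. Every listed episomal barcode has a read in each library, so that the activity of weak constructs is overstated. SD values of the episomal arrays cover 2 mRNA libraries that share 1 plasmid library. Nothing in the labels says that the integrated triplicates came from separate cultures, so their p-values measure a spread that may be technical.

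With 5 bp spacers, arrays with more NFKB than IRF were the most active mixed arrays and arrays with more IRF than NFKB the least active. NFKB_IRF_NFKB in context 1 had 31767 and 27681 mRNA reads against 9887 plasmid reads, over 845 barcodes. The rd construct of context 1 had 2655 and 2389 mRNA reads against 6778 plasmid reads, over 541 barcodes. The mixed array had more mRNA than plasmid reads in both libraries, and rd had fewer in both. NFKB_IRF_NFKB thus had activities of 1.77 and 1.76 in context 1, 1.25 and 1.28 in context 2, and 1.16 and 1.18 in context 3. IRF_NFKB_IRF had activities of -0.26 and -0.20 in context 1, -0.89 and -0.80 in context 2, and -0.42 and -0.32 in context 3. The rd constructs had activities of -1.27 and -1.23, -1.06 and -1.17, and -1.58 and -1.51 in contexts 1 to 3. The libraries of the mixed arrays lay above those of the rd construct of their own context throughout.

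Averaged over contexts, NFKB_IRF_NFKB lay 2.70 ± 0.01 log2 units above rd (SD, n = 2), a 6.52-fold difference. IRF_NFKB lay 1.77 ± 0.04 above rd, NFKB_IRF 1.47 ± 0.01 and IRF_NFKB_IRF 0.82 ± 0.06 (SD, n = 2 each). All 12 mixed arrays were higher than rd of their context by limma (adjusted p under 0.05) and none was lower, where 61% of all constructs were called higher and 27.6% lower. The smallest difference was 0.27, of IRF_NFKB_IRF in context 2, which was not called with the library fitted alone. That fit gave every construct the same standard error of 0.11, since the constructs of a context share 1 rd, so its p-values carry little information and are not given. In the edgeR fit of the 442 designs present at both spacers, all 9 mixed arrays tested at 5 bp were enriched in mRNA over plasmid DNA and none was depleted, where 40.5% of all designs were enriched and 49.5% depleted. With the 5 bp library fitted alone, 11 of 12 were higher and none lower, where 42.6% of all constructs were higher and 45.2% lower, and the exception was IRF_NFKB_IRF in context 2 at -0.11 ± 0.06 (SE). Scaled by library totals in place of the trimmed mean (TMM), 6 of the 9 were higher and 2 were lower, where 22.6% of all designs were higher and 69.9% lower.

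Set against homotypic arrays of the same number of motifs and the same context, 10 of the 12 mixed arrays at 5 bp lay between the IRF-only and the NFKB-only array. By limma 11 of 12 were higher than the IRF-only array, where 57.4% of all mixed arrays were higher and 22% lower than the array of the alphabetically first motif of their pair. Likewise 11 of 12 were lower than the NFKB-only array, where 37.8% of all were lower and 48.6% higher than the array of the second motif. Over all mixed arrays 31.8% lay between their homotypic arrays, 29.9% above both and 6.7% below both. Without mRNA replicate 1 the count of 10 was 8, and without replicate 2 it was 9. The exceptions were IRF_NFKB_IRF in context 2, at 0.05 ± 0.08 (SE) from the IRF-only array, and NFKB_IRF_NFKB in context 1, at -0.10 ± 0.09 from the NFKB-only array. In context 2, IRF_NFKB had activities of 0.65 and 0.67, against -0.40 and -0.24 for IRF_IRF and 1.09 and 1.01 for NFKB_NFKB. The 3 ranges did not overlap.

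A mixed array can also be set against the mean of its homotypic arrays, weighted by motif copies on the log2 scale, and the difference is called its departure. At 5 bp, 4 of 12 mixed arrays lay above that mean and 5 lay below (limma, adjusted p under 0.05), where 56.7% of all mixed arrays were above and 30.4% below. The median departure was -0.05 for the IRF and NFKB arrays and 0.36 over all mixed arrays, which placed the pair at rank 16 of 28 motif pairs. The 3-motif arrays of opposite composition differed in sign in contexts 1 and 2. NFKB_IRF_NFKB departed by 0.79 and 0.72 in context 1 and by 0.41 and 0.45 in context 2, both called, and by 0.01 and -0.02 in context 3. IRF_NFKB_IRF departed by -0.33 and -0.42, by -0.84 and -0.79, and by -0.65 and -0.66 in contexts 1 to 3, all called. Against IRF_NFKB of the same context, the IRF_NFKB_IRF array was lower by 2.02-fold, 2.84-fold and 1.25-fold. It was the lower of the pair in both libraries of every context.

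The 2-motif arrays stayed close to the weighted mean at 5 bp. IRF_NFKB departed by 0.22 ± 0.01 in context 1, 0.29 ± 0.02 in context 2 and -0.08 ± 0.01 in context 3, the first and second called. NFKB_IRF departed by -0.01 ± 0.05, -0.28 ± 0.05 and -0.18 ± 0.02 (SD, n = 2 each), the last pair called. Taking the stronger homotypic array as the expectation, none of the 12 was above it and 11 were below, where 30.1% of all mixed arrays were above and 53.6% below. For these 12 the stronger array was always the NFKB-only array, so this repeats the comparison with it and adds no separate result.

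With 10 bp spacers the mixed arrays were among the more active constructs of the library, at ranks 1 to 50 of 442, and all lay above the NFKB-only array. NFKB_IRF_NFKB in context 3 had 58796 and 57999 mRNA reads against 15084 plasmid reads, over 1086 barcodes, the highest activity of the 442 constructs. NFKB_NFKB_NFKB in context 3 had 4220 and 4484 mRNA reads against 10099 plasmid reads, and rd had 6419 and 5871 against 12397. The array with IRF in the middle thus had more mRNA than plasmid reads, whereas the array of NFKB alone and rd both had fewer.

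By construct, NFKB_IRF_NFKB had activities of 1.00 and 1.01, 1.30 and 1.29, and 2.10 and 2.09 in contexts 1 to 3. NFKB_IRF averaged 1.52 ± 0.03, 1.94 ± 0.03 and 1.67 ± 0.01 (SD, n = 2 each), and ranked 10, 2 and 7 among 442. IRF_NFKB had 1.32 and 1.28, 1.20 and 1.21, and 1.36 and 1.36. The rd constructs had -0.62 and -0.74, -0.27 and -0.35, and -0.82 and -0.93, below every mixed array. Averaged over contexts, NFKB_IRF lay 2.33 ± 0.08 log2 units above rd, NFKB_IRF_NFKB 2.09 ± 0.07 and IRF_NFKB 1.91 ± 0.07 (SD, n = 2 each), against 2.14 ± 0.11 for IRF_IRF, 1.79 ± 0.12 for IRF_IRF_IRF, 1.16 ± 0.09 for NFKB_NFKB and 0.01 ± 0.14 for NFKB_NFKB_NFKB. All 9 were enriched in mRNA over plasmid DNA by edgeR, where 45.7% of all designs were enriched and 48.6% depleted. With the 10 bp library fitted alone all 9 were again enriched, where 45.9% of all were enriched and 48% depleted. All 9 were higher than rd by limma, where 44.6% of all constructs were higher and 44% lower. The order among the mixed arrays differed from that at 5 bp, with the 2-motif array NFKB_IRF above NFKB_IRF_NFKB in contexts 1 and 2 and below it in context 3.

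All 9 mixed arrays at 10 bp were higher than the NFKB-only array, where 59.4% of all mixed arrays were higher and 31.4% lower than that of their second motif. The largest difference was that of NFKB_IRF_NFKB in context 3, at 3.17 ± 0.09 (SE), an 8.99-fold difference that was called by limma. Its p-value is not given, since the arrays of this fit share homotypic arrays and 1 plasmid library without replicate. Against the IRF-only array 4 were higher, where 58.8% of all were, and 3 were lower, where 21.1% were. These 4, which lay above both homotypic arrays where 34.3% of all mixed arrays did (33% lay between and 4.4% below both), were NFKB_IRF in contexts 2 and 3 and NFKB_IRF_NFKB in contexts 2 and 3, by 1.26-fold to 1.38-fold over the IRF-only array. The count fell to 2 without mRNA replicate 1 and to 3 without replicate 2.

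The departures at 10 bp were positive, in a set without IRF_NFKB_IRF, which was below the mean in every context at 5 bp. Of the 9 arrays, 8 lay above the copy-weighted mean and none below, where 66% of all mixed arrays were above and 21.7% below. Their median was 0.73 against 0.53 over all mixed arrays, at rank 10 of 28 pairs. NFKB_IRF_NFKB departed by 0.77 and 0.69, 1.55 and 1.45, and 2.27 and 2.18 in contexts 1 to 3, and the last is a 4.67-fold excess. NFKB_IRF departed by 0.24 ± 0.04, 1.06 ± 0.02 and 0.76 ± 0.05 (SD, n = 2 each), all called. IRF_NFKB departed by 0.02 ± 0.05 in context 1, the array that was not called, and by 0.32 ± 0.01 and 0.45 ± 0.04 in contexts 2 and 3. The large departures of NFKB_IRF_NFKB stood beside NFKB_NFKB_NFKB activities of -0.03 ± 0.08, -0.73 ± 0.05 and -1.07 ± 0.07 (SD, n = 2 each), which enter the mean with 2 of 3 parts.

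Between the spacers, the departure was larger at 10 bp for 6 of 9 arrays and smaller for none (limma), where 35.5% of all mixed arrays were larger and 34.6% smaller. It was larger by 2.23 ± 0.08 (SE) for NFKB_IRF_NFKB in context 3, by 1.33 ± 0.08 for NFKB_IRF in context 2 and by 1.07 ± 0.09 for NFKB_IRF_NFKB in context 2. In context 2 the activity of NFKB_IRF_NFKB was 1.26 ± 0.02 at 5 bp and 1.29 ± 0.01 at 10 bp. That of NFKB_NFKB_NFKB, part of its expectation, was 1.70 ± 0.03 and -0.73 ± 0.05 (SD, n = 2 each). In context 3 NFKB_IRF_NFKB had 1.17 and 2.09, and NFKB_NFKB_NFKB had 2.07 and -1.07. The activity itself, by edgeR, was higher at 10 bp for 7 and lower for 1 of the 9, where 36% of all designs were higher and 41.2% lower. NFKB_IRF was higher in all contexts, by 1.97-fold, 3.64-fold and 3.57-fold, and the array that was lower was NFKB_IRF_NFKB in context 1, at -0.75 ± 0.06 (SE). Scaled on the rd constructs, 4 were higher and 2 lower, where 14.9% of all designs were higher and 69.2% lower. With that scaling the median difference was 0.23 for the 9 arrays and -0.76 over all designs, and with TMM it was 0.93 and -0.05. The spacers were separate plasmid pools and separate transfections, so that spacing and pool cannot be told apart.

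The order of the motifs in the 2-motif arrays went one way at 10 bp and the other at 5 bp. At 10 bp, IRF first minus NFKB first was -0.22 ± 0.06 in context 1, -0.73 ± 0.06 in context 2 and -0.31 ± 0.06 in context 3 (SE), so that NFKB_IRF was higher in all 3 contexts. All 3 were called by limma, where 31% of the 87 swapped pairs of the library were called lower and 25.3% higher. At 5 bp the same difference was 0.23 ± 0.06, 0.57 ± 0.06 and 0.10 ± 0.06 in contexts 1 to 3, the first and second called, where 40% of 155 swapped pairs were called higher. The 10 bp difference minus the 5 bp difference was -0.45 ± 0.09, -1.31 ± 0.08 and -0.41 ± 0.08 (SE), with limma adjusted p of 0.00668, 0.000182 and 0.00713, where 19.5% of swapped pairs were called lower and 29.9% higher. Without either mRNA replicate, context 1 at 10 bp was no longer called (limma adjusted p of 0.0835 and 0.0958), nor with at least 20 plasmid reads a barcode (0.123). Exchanging the motif names of the 3-motif arrays changes their composition as well. At 5 bp IRF_NFKB_IRF was 3.98-fold, 4.32-fold and 2.91-fold lower than NFKB_IRF_NFKB in contexts 1 to 3, all called, where 36.8% of swapped pairs were called lower.

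In the integrated library 7 of the 12 mixed arrays lay below the arrays of either motif alone. That count rested on all 3 samples and on samples taken as unpaired. It was 2 with mRNA and genomic DNA paired by replicate number. By limma 1 array, NFKB_IRF_NFKB in context 1 at 1.17 ± 0.18 (SE), was higher in mRNA than in genomic DNA, where 13.5% of all constructs were, and 4 were lower, where 55.9% were. Without replicate 2 or 3 the lower arrays numbered 2, where 36.6% and 45.2% of all constructs were lower. IRF_NFKB_IRF in context 1 had 428, 664 and 541 RPM in the mRNA samples and 830, 863 and 1093 RPM in the genomic DNA samples. IRF_IRF_IRF in that context had 3121, 3388 and 2707 RPM in mRNA and 1106, 1125 and 885 RPM in genomic DNA, and NFKB_NFKB_NFKB had 3506, 3465 and 4099 RPM in mRNA and 1569, 1704 and 1518 RPM in genomic DNA. The mRNA of the mixed array was below its genomic DNA, and that of both homotypic arrays was above theirs. The activities, taken against the mean of the 3 genomic DNA samples, were -1.11, -0.47 and -0.77 for the mixed array, against 1.59, 1.71 and 1.39 for IRF_IRF_IRF and 1.14, 1.12 and 1.36 for NFKB_NFKB_NFKB, with no overlap.

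Of the 12 integrated mixed arrays, 9 were lower than the IRF-only array, where 24.5% of all mixed arrays were lower and 23.2% higher than that of their first motif, and 7 were lower than the NFKB-only array, where 22.9% were lower and 27.7% higher than that of their second. None was higher than either. The 7 lay below both homotypic arrays, where 5.87% of all mixed arrays did, 10.9% lay between and 8.8% above both. Against the copy-weighted mean 7 of 12 were below and none above, where 15.5% of all were below and 24.3% above. The median departure was -1.21 against 0.20 over all mixed arrays, at rank 23 of 28 pairs. Without replicate 1, 2 or 3, the arrays lower than the IRF-only array numbered 4, 7 and 7, where 15.2%, 17.1% and 20.8% of all mixed arrays were. Those lower than the NFKB-only array numbered 3, 2 and 2, where 17.3%, 12.8% and 14.9% of all were, so the counts of 2 were near that share. Those below the mean numbered 4, 3 and 3, where 9.07%, 7.73% and 9.07% of all were, and those below both 2, 2 and 1. Paired by replicate number, 6 were lower than the IRF-only array, where 16.5% of all were.

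The 3-motif arrays with IRF at both ends showed the departure in every context. IRF_NFKB_IRF departed by -2.55, -1.99 and -2.15 in context 1, by -4.41, -2.48 and -1.67 in context 2, and by -1.83, -2.08 and -1.84 in context 3. With -2.23 ± 0.29, -2.86 ± 1.41 and -1.92 ± 0.14 (SD, n = 3 each), all were called, and contexts 1 and 3 stayed called whichever replicate was left out. With each mRNA sample over the genomic DNA sample of its own number, the SDs were 0.41, 1.29 and 0.31. NFKB_IRF_NFKB departed by -3.52, -2.23 and -2.83 in context 3, also called with any replicate left out, while contexts 1 and 2 at -0.16 ± 0.15 and -0.40 ± 0.38 were not called. Its activity varied most between contexts, at 1.17 ± 0.19 in context 1, 0.34 ± 0.44 in context 2 and -1.70 ± 0.65 in context 3 (SD, n = 3 each). Among 2-motif arrays, IRF_NFKB in context 1 and NFKB_IRF in contexts 1 and 3 were called, at -1.19 ± 0.36, -1.22 ± 0.20 and -1.22 ± 0.12, and the other 3 ranged from -0.79 ± 1.17 to 0.39 ± 0.68.

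The highest of these, IRF_NFKB in context 3 at 0.39, drew 75.39% of its mRNA from the barcode shown above. That barcode had 388, 420 and 778 RPM of the 559, 585 and 959 RPM of mRNA of its array. Without the barcode of highest mRNA of each construct the array departed by -1.25, and its excess over NFKB_IRF of the same context, 1.62 ± 0.40 (SE) with all barcodes and called, became -0.18. In order, 2 of 6 integrated differences were called higher and 2 lower, where 23.9% and 18.1% of all pairs were, and without replicate 1, 2 or 3 the higher ones numbered 1, 0 and 0. NFKB_IRF_NFKB in context 2 had 892, 365 and 953 RPM on its leading barcode, and its mRNA over genomic DNA was 0.34 with it and -0.65 without it. Leaving out the leading barcode lowers constructs in general, and the median over all constructs went from -1.45 to -2.55.

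Against rd, 5 of the 12 integrated mixed arrays were higher, where 30.4% of all constructs were, and 1 was lower, where 29.4% were. The rd constructs differed between contexts, with activities of -1.05, -0.92 and -1.03 in context 1, of 0.60, 1.37 and 0.29 in context 2, and of -3.52, -3.79 and -4.00 in context 3, and 1 barcode held 67.3%, 83.95% and 45.95% of their mRNA. Averaged over contexts the excess over rd was 1.28 ± 0.32 for NFKB_IRF_NFKB, 1.07 ± 0.36 for IRF_NFKB, 0.42 ± 0.61 for NFKB_IRF and 0.28 ± 0.55 for IRF_NFKB_IRF, against 2.81 ± 0.12 for IRF_IRF_IRF, 2.22 ± 0.29 for NFKB_NFKB_NFKB, 2.11 ± 0.37 for IRF_IRF and 0.89 ± 0.14 for NFKB_NFKB (SD, n = 3 each). Without the leading barcode of each construct, 8 were higher and none lower, where 30% of all constructs were higher and 8.2% lower, and without replicate 1 or 2 none of the 12 was lower.

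Counting each integrated barcode once, whatever its level, the mixed arrays pooled lay below both homotypic groups pooled. Of the barcodes of mixed arrays, 27.8%, 31.4% and 28.2% had mRNA in the 3 samples, against 58.9%, 65.4% and 52.4% of IRF-only barcodes, 43.1%, 51.1% and 37.0% of NFKB-only barcodes, and 7.32%, 13.0% and 8.13% of rd barcodes. This order held in every sample, with the mixed arrays above rd, and the pair was at rank 10 of 28 pairs. Over the mixed arrays of all pairs the shares were lower, at 19.5%, 22.6% and 17.6%. Over all barcodes they were 19.2%, 22.5% and 17.2%. At equal copies, mixed arrays of 3 motifs had 29.9% ± 3.84, against 65.1% ± 8.73 for IRF_IRF_IRF and 55.4% ± 9.18 for NFKB_NFKB_NFKB. Mixed arrays of 2 motifs had 27.6% ± 2.14, against 63.7% ± 4.49 for IRF_IRF and 40.4% ± 9.13 for NFKB_NFKB (SD, n = 3 each). By string, NFKB_IRF_NFKB had 36.6% ± 5.25, IRF_NFKB 29.6% ± 2.89, NFKB_IRF 25.2% ± 4.59 and IRF_NFKB_IRF 22.5% ± 2.31.

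By single array the share was highest for NFKB_IRF_NFKB in context 1, where 42 of 50 barcodes had mRNA in any sample (84%, exact 95% interval 70.9% to 92.8%), against 36 of 40 for IRF_IRF_IRF (90%, 76.3% to 97.2%) and 50 of 54 for NFKB_NFKB_NFKB (92.6%, 82.1% to 97.9%) in that context. These intervals overlap. Over the 3 samples the mean share with mRNA was 62.7% ± 6.43 for NFKB_IRF_NFKB. It was 70.0% ± 10.9 for IRF_IRF_IRF and 61.7% ± 10.9 for NFKB_NFKB_NFKB (SD, n = 3 each). This array was thus not set apart from the homotypic arrays as the pooled mixed arrays were. It was lowest for IRF_NFKB_IRF in context 2, with 11 of 41 (26.8%, 14.2% to 42.9%), against 32 of 40 for IRF_IRF_IRF (80%, 64.4% to 90.9%) and 32 of 39 for NFKB_NFKB_NFKB (82.1%, 66.5% to 92.5%) in the same context. These intervals cover counting error only. The reads carry no molecular identifiers, and a barcode without mRNA may hold fewer molecules than were sampled.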

How the data were processed

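The data are STARR-seq counts of artificial motif arrays in MEC1 cells (13 samples), with groups taken from the sample titles. Episomal tables hold raw counts for each barcode as deposited by the authors, per the file headers. The integrated table holds RPM for each barcode as computed by the authors, per the file headers. No aligner or caller is named in the labels, and 9 further per-sample columns could not be tied to a sample and were not used. Episomal libraries held 3850658 to 4563359 reads, of which 16.6% to 18.5% lay on barcodes with no construct name and were left out. The integrated table gives no read totals, so its depth is unknown.

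Episomal barcodes needed 5 plasmid reads, and a construct needed 5 barcodes (integrated: 3). Summed reads of the 442 designs found at both spacers entered 1 edgeR fit over 6 libraries (version 4.0.16, R 4.3.3, TMM scaling, quasi-likelihood test), in which the single plasmid library of a spacer borrows the spread of the mRNA replicates. Differences of log2 shares (departure, single homotypic arrays, rd, order) and log2(RPM + 0.5) were fitted with limma 3.58.1. P-values were adjusted by Benjamini-Hochberg over all constructs or pairs, and called means an adjusted p under 0.05. Both methods were run on simulated data whose spread was set alike for all constructs, so the runs do not show their error rates in these data. DESeq2 1.42.0, other scalings, filters and expectations, left-out replicates and a replicate block were tried as alternatives. The mRNA replicates differed beyond sampling noise (chi-square per degree of freedom of 6.41 at 5 bp and 6.76 at 10 bp).

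Arrays named with full values held the 3 highest or lowest departures or activities over rd of a library or had 1 IRF and 1 NFKB motif, and order and spacing differences were named where they passed the test. The members and comparisons were chosen with earlier results of these data known. The single homotypic arrays, the position between them, the difference in order between spacers, and the use of the mean genomic DNA in each integrated sample's value were chosen after seeing the data.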

Additional observations from a re-analysis of the deposited data

Results flagged for a closer look

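Differences between spacers passed the test for 8 of 9 arrays in activity (edgeR), 6 of 9 in departure and 3 of 3 in order (limma). Of all designs 36% were higher and 41.2% lower in activity, 35.5% and 34.6% of mixed arrays in departure, and 29.9% and 19.5% of swapped pairs in order, so the counts in activity and departure, taken without direction, are near those of all features. In activity, 10 bp minus 5 bp was 0.53, 0.56 and 1.42 for IRF_NFKB and 0.98, 1.86 and 1.83 for NFKB_IRF in contexts 1 to 3, and -0.75 and 0.93 for NFKB_IRF_NFKB in contexts 1 and 3. In departure it was 0.52 for IRF_NFKB in context 3, 0.25, 1.33 and 0.94 for NFKB_IRF in contexts 1 to 3, and 1.07 and 2.23 for NFKB_IRF_NFKB in contexts 2 and 3. In motif order it was -0.45, -1.31 and -0.41 in contexts 1 to 3.

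In 2 arrays every integrated sample departed downwards from the homotypic arrays and both episomal 5 bp samples upwards. They were IRF_NFKB in context 1, at -1.19 integrated and 0.22 episomal, and NFKB_IRF_NFKB in context 2, at -0.40 and 0.43. The integrated departure of the latter, -0.40 ± 0.38 (SD, n = 3), was not called, and 1 barcode held 52% of its integrated mRNA. The difference between the assays was not tested, since their tables were normalized separately. The directions were the same with each mRNA sample set over the genomic DNA sample of its own number, at -1.22, -0.87 and -1.48 for IRF_NFKB and at -0.14, -1.03 and -0.027 for NFKB_IRF_NFKB.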

How the results depend on the processing

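Scaled on rd, 4 arrays were higher and 2 lower at 10 bp than at 5 bp (14.9% and 69.2% of all designs), with IRF_NFKB at -0.18 and -0.15 in contexts 1 and 2 and NFKB_IRF_NFKB at -0.67 in context 2. By library totals 2 arrays were lower in mRNA at 5 bp (69.9% of all designs), and IRF_NFKB in context 3 stood at -0.17 and NFKB_IRF at -0.038 and -0.28 in contexts 2 and 3. Centred on rd, 6 integrated arrays were higher and 0 lower than genomic DNA (1 and 4 otherwise), where 28.7% of all constructs were higher and 18.3% lower, with IRF_NFKB at 0.89, 1.12 and 1.20 in contexts 1 to 3 and IRF_NFKB_IRF at 0.56 and 1.08 in contexts 1 and 3. The causes were not tested.

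The stronger homotypic array and the linear mean are at or above the log2 mean by construction. With the stronger array, departures at 5 bp were higher in 0 and lower in 11 (30.1% and 53.6% of all mixed arrays), and at 10 bp in 4 and 3 (34.3% and 48.7%). The stronger array was the NFKB-only array at 5 bp and the IRF-only array at 10 bp, so these counts repeat those comparisons. IRF_NFKB then stood at -0.44 and -0.39 in contexts 1 and 2 at 5 bp and at -0.46 and -0.37 at 10 bp, NFKB_IRF_NFKB at -0.10 and -0.44 in contexts 1 and 2 at 5 bp, and NFKB_IRF at -0.25 in context 1 at 10 bp. With the linear mean, 1 was higher and 8 lower at 5 bp (48.1% and 37.6%), and NFKB_IRF_NFKB in context 1 had a spacer difference of 0.29. With barcodes from 1 plasmid read, 1 departure was smaller at 10 bp, and with 20 reads 1 order difference was called higher at 5 bp.

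Samples of the same replicate number did not deviate together (correlations of 0.05 episomal and -0.02, 0.05 and -0.03 integrated). That does not exclude that equal numbers mark the same extraction, so whether the numbers pair the integrated samples is unknown. With the replicate block, 3 integrated arrays were below the copy-weighted mean (6.93% of all mixed arrays) and 6 below the IRF-only array (16.5%). Below the NFKB-only array lay 3 (15.2%), and 2 lay below both. In order 0 differences were called higher and 1 lower (7.74% of all pairs each way). The episomal block leaves out arrays present at 5 bp alone. With it, 1 departure was lower at 5 bp, and in order 1 was higher and 0 lower. Without the barcode of highest mRNA, 8 of 12 integrated arrays were lower than genomic DNA, a share like that of all constructs (67.4%). Then 8 were higher and 0 lower than rd (30% and 8.2% of all), and in order 0 were higher and 1 lower (9.68% and 5.81% of all pairs). IRF_NFKB in context 3 then stood at -1.43 against the IRF-only array and -0.18 in order, and NFKB_IRF_NFKB in context 2 at -0.65 against genomic DNA.

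Leaving out each replicate gave 2 to 3 arrays above the IRF-only array and 2 to 3 above both at 10 bp. In the integrated library it gave 2 to 3 lower than genomic DNA (36.6% to 45.2% of all constructs) and 0 to 1 lower than rd (21.2% to 26.1%). It gave 4 to 7 lower than the IRF-only array (15.2% to 20.8% of all mixed arrays) and 2 to 3 lower than the NFKB-only array (12.8% to 17.3%). Below both lay 1 to 2, and below the mean 3 to 4 (7.73% to 9.07%). In order 0 to 1 were higher (8.39% to 18.1% of all pairs) and 1 to 2 lower (5.16% to 14.8%). The other counts stayed within 1.5 times under the alternatives run, among them the 9 of 9 higher in mRNA and over the NFKB-only array at 10 bp.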
